A study of Mus musculus with 12 samples.

Results

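The genes described here are 44 genes of DNA replication and of S phase, the part of the cell cycle in which the genome is copied. They were taken by symbol from a given list, and all 44 were found among the 37620 gene IDs of the count tables. RNA was sequenced in 12 libraries of neuronal stem cells from mouse embryos (E14.5) of the C57BL/6J strain, kept dividing in culture with 20 ng/ml FGF-2 and 20 ng/ml EGF. The 4 groups of 3 libraries were E12wt (genotype E12+/+), E12KO (E12-/-), E47wt (E47+/+) and E47KO (E47-/-), with wild-type cells taken from litter mates of each knockout. Tcf3 encodes both E12 and E47, transcription factors of the helix-loop-helix class that arise from it by alternative splicing. No label ties the replicates to different embryos or cultures, so p-values measure the spread between these libraries, which may be technical. In E47wt it is not only technical, since sex-linked transcripts, given below, differed between replicate 2 and replicates 1 and 3. These E47wt libraries thus did not all come from a single embryo.

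Before S phase, the origin recognition complex with Cdc6 and Cdt1 loads the MCM ring onto DNA, which licenses an origin, and geminin blocks a further loading. Cyclin E with its kinase and the kinase Cdc7 then start the ring, Cdc45 and the GINS complex join it as the active helicase, and polymerases copy both strands with the sliding clamp PCNA. Many of these genes are transcribed near the border of G1 and S by E2F factors, so their RNA is commonly read as a sign of how many cells in a population are cycling. In neural stem cells they mark the dividing state and go down when cells leave the cycle. In a bulk sample, fewer cells in S phase and less RNA per cell cannot be told apart.

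The libraries held 34515297 to 56835783 reads on genes. Levels are counts per 1000000 reads (CPM), scaled with TMM, a method that corrects for differences in RNA composition, over all 12 libraries. The level of the targeted gene Tcf3 was 77.1, 82.4 and 75.9 CPM for E12wt, 92.1, 72.9 and 101 for E12KO, 84.2, 75.9 and 97.2 for E47wt and 117.4, 113 and 106 for E47KO, but counts over the whole gene hold both splice forms and check neither knockout. The 8 neural stem cell markers were detected in every library, with a summed level of 7362 to 8586 CPM, while the summed markers of microglia and of erythroid cells stayed at or under 0.362 CPM. On the first principal component, which held 40.0% of the variance, E47KO replicate 2 lay at 63.1 and the other 11 libraries between −15.9 and 6.78. Each fold change of a gene in E47KO is given with all libraries and, in brackets, without E47KO replicate 2.

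All 44 genes were expressed in every library. Levels per kilobase (kb) used the annotated exon length of each gene, which can exceed the length of the transcripts expressed. The order of genes on this scale is therefore approximate. The mean level over 12 libraries was lowest for Orc1, the largest subunit of the origin recognition complex, at 4.68 CPM per kb. Pcna, the sliding clamp, was highest at 185 CPM per kb. Rrm1, the large subunit of ribonucleotide reductase, had the highest mean CPM of the 44 genes. Its annotated exon length was among the longest, and it ranked below Pcna per kb. Rrm2, the small subunit of ribonucleotide reductase, came second at 127 CPM per kb, followed by the helicase subunits Mcm6 at 72.5, Mcm7 at 69.5, Mcm4 at 67.0 and Mcm3 at 56.5 CPM per kb. The lowest count of any of the genes in a library was 190 reads, for the cyclin Ccne2 in E47KO replicate 2, with an exact Poisson 95% interval of 164 to 219 reads that covers counting error only. Over the 12 libraries the coefficient of variation had a median of 18.5% for the 44 genes, from 7.60% for Gins4 to 38.4% for Ccne2, beside 15.5% for all 15277 genes tested. Without E47KO replicate 2 the order turned, with a median of 10.7% for the 44 genes, from 4.58% for Rrm1 to 28.3% for Ccne2, beside 11.8% for all genes. Neither comparison was matched for level, so neither sets the 44 genes against genes of like level.

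Promoters were read for the letters of E2F, CCAAT and E-box sites. The part of these letters in the levels of the 44 genes was not tested. All genes, used as background, were not matched to the 44 for base composition. RefSeq promoter windows on GRCm38.p6, from 250 bases before to 50 bases after each start, were found for 36 of the 44 genes, and the largest number of matches over a gene's windows was used. E2F-type letters (TTTCCCGC, TTTGGCGC, TTTCGCGC or TTTGCCGC, on either strand) occurred in 14 of the 36 genes, or 38.9%, and in 2.6% of all 27025 genes with a window. CCAAT on either strand occurred in 63.9% of the 36 genes and in 41.1% of all genes. The E-box letters CANNTG, the kind of site that E proteins bind, occurred in 69.4% of the 36 and 75% of all genes, and the E-boxes CAGCTG or CAGGTG, which are a subset of these, in 25% and 35.9%. A match describes letters in the window and is not a measured binding site. The 180 bases before the start are given here for 4 of these 14 genes, a licensing factor, a pair of helicase subunits and the catalytic subunit of polymerase alpha, 5′ to 3′ along the gene, with E2F-type letters in capitals. In Mcm5 and Mcm6 some matches overlap and form 1 run of capitals.
Cdc6, chr11:98907971-98908150 on the plus strand: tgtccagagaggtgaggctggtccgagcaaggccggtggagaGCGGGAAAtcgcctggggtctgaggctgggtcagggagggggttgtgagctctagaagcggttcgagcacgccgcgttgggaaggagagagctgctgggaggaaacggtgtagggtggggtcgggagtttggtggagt
Mcm5, chr8:75109329-75109508 on the plus strand: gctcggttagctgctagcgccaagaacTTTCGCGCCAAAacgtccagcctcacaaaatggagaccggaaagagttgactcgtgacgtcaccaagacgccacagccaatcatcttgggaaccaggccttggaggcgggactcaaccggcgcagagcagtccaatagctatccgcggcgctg
Mcm6, chr1:128359706-128359885 on the minus strand: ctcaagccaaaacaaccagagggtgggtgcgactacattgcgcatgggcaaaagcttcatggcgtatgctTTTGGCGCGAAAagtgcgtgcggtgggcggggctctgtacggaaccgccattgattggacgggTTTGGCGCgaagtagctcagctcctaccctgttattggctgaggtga
Pola1, chrX:93632156-93632335 on the minus strand: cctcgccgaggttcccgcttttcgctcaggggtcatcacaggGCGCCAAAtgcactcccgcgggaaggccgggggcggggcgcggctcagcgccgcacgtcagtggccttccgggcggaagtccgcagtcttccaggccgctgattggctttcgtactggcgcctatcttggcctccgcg
The first match began 138 bases before the start in Cdc6 and in Pola1, 153 bases before it in Mcm5 and 110 bases before it in Mcm6.

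The largest differences among the 44 genes lay between libraries of 1 group, E47KO. In E47KO replicate 2, 42 of the 44 genes had their lowest level of the 12 libraries, while 30.1% of all genes tested were lowest there. In E47KO replicate 3, 35 of the 44 genes had their highest level, beside 12.1% of all genes. The exceptions at the low end were Gins4, lowest in E47KO replicate 1, and Rfc2, lowest in E12KO replicate 2. Of the 9 genes that peaked elsewhere, 5 did so in E12wt replicate 3 and 4 in E47wt replicate 3. The summed level of the 44 genes was 5351, 3066 and 6925 CPM in E47KO replicates 1, 2 and 3, and 5233 to 6497 CPM in the other 9 libraries. E47KO replicate 1 thus lay within the range of the other groups, with replicate 2 below it and replicate 3 above it. In each of the 4 groups replicate 3 had the highest summed level, at 6018 CPM in E12wt, 5778 in E12KO, 6497 in E47wt and 6925 in E47KO. What the libraries of this number share was not tested.

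**Figure D1:**
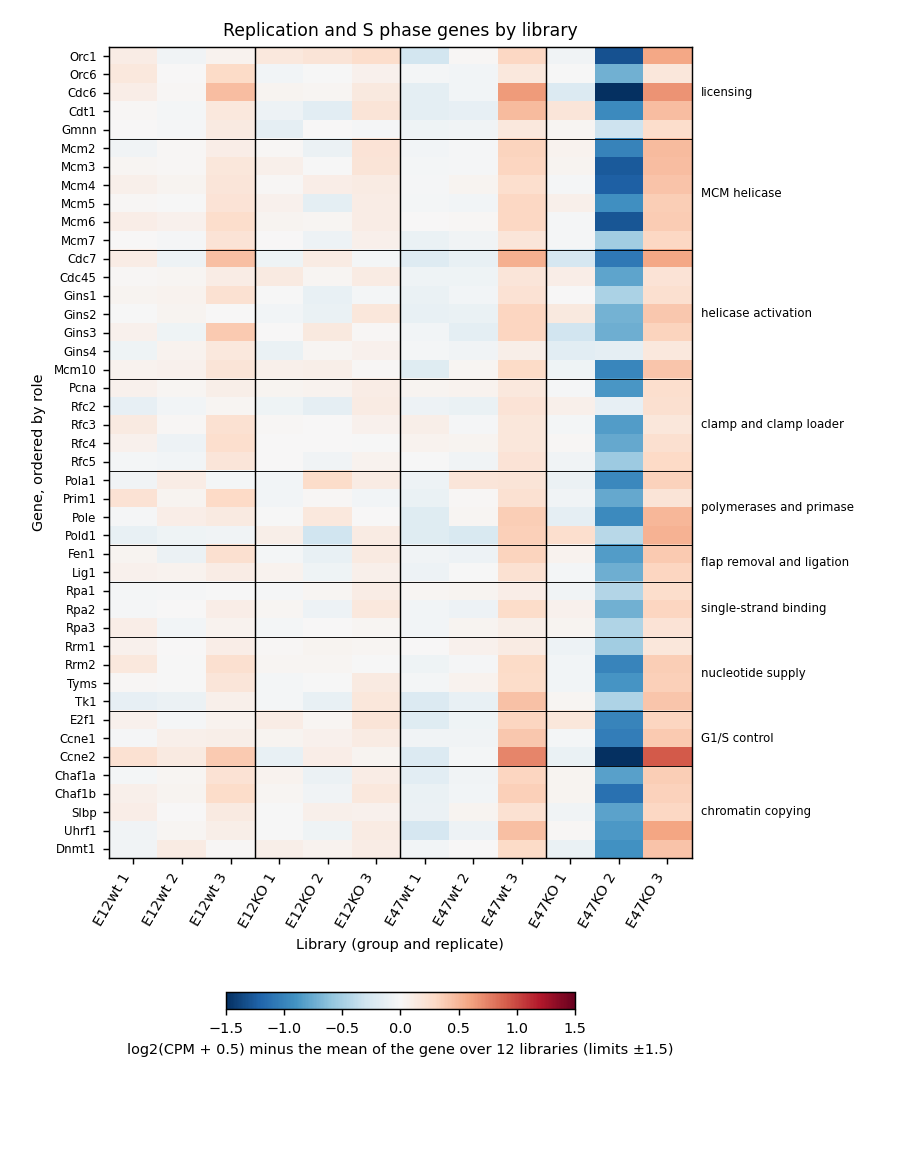
Each row is 1 of the 44 genes, ordered by role, and each column 1 library; colour gives log2(CPM + 0.5) minus the mean of the gene over 12 libraries, with limits of ±1.5. The column of E47KO replicate 2 is blue in every row, palest for Gins4 and Rfc2, and the columns of E47KO replicate 3 and E47wt replicate 3 are red throughout.

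Set against the median of the other 11 libraries, the level in E47KO replicate 2 had a median ratio of 0.538 over the 44 genes, from 0.204 for Ccne2 to 0.947 for Rfc2, and all 44 ratios were below 1. It was under 0.5 for 15 of the 44 genes, beside 5.55% of all genes. The ratio was above 1 for all 44 genes in E47KO replicate 3, with a median of 1.26, and in E47wt replicate 3, with a median of 1.20. By role, the median ratio in E47KO replicate 2 was 0.448 for the MCM helicase, 0.459 for G1/S control and 0.500 for licensing, against 0.705 for single-strand binding. Genes with E2F-type letters had a median ratio of 0.508 (14 genes) and those with a window but no match 0.543 (22 genes).

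Among the licensing genes, Cdc6 had the widest range. Cdc6, the loader that brings the MCM ring to the origin, had 48.3, 45.7 and 62.5 CPM in the E12wt libraries, 46.4, 45.9 and 49.9 in E12KO, 40.7, 43.9 and 70.3 in E47wt and 39.0, 13.5 and 72.5 in E47KO (ENSMUSG00000017499). E47KO replicate 2 lay far below all other libraries, replicate 3 above all of them, and the groups of each line overlapped. Its log2 fold change was −0.13 ± 0.11 in E12KO and −0.31 ± 0.53 (0.11 ± 0.31 without replicate 2) in E47KO (edgeR, ± SE; adjusted p = 0.720 and 0.971 with all libraries). Orc1 had 16.9, 15.1 and 16.2 CPM in the E12wt libraries, 17.5, 17.95 and 18.9 in E12KO, 12.8, 15.9 and 19.6 in E47wt and 15.04, 6.04 and 23.6 in E47KO (ENSMUSG00000028587). Its 3 E12KO libraries were all above the 3 E12wt libraries, with a log2 fold change of 0.18 ± 0.09 that did not pass (edgeR adjusted p = 0.572), and in the E47 line it was −0.11 ± 0.44 (0.26 ± 0.24 without replicate 2). For Orc6, another subunit of the complex, the levels were 74.4, 67.1 and 81.3 CPM in the E12wt libraries, 64.5, 66.2 and 70.0 in E12KO, 65.2, 64.8 and 74.5 in E47wt and 66.3, 40.4 and 75.2 in E47KO (ENSMUSG00000031697). Its E12KO libraries lay low within the range of E12wt or below it, at −0.14 ± 0.08 on the log2 scale. The licensing factor Cdt1 and its inhibitor geminin (Gmnn) had log2 fold changes of −0.05 ± 0.11 and −0.09 ± 0.08 in E12KO and −0.09 ± 0.36 (0.23 ± 0.21 without replicate 2) and 0.00 ± 0.17 (0.14 ± 0.13 without replicate 2) in E47KO.

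All 6 subunits of the MCM ring were lowest in E47KO replicate 2 and highest in E47KO replicate 3. Mcm6 had 350.2, 342 and 392 CPM in the E12wt libraries, 337, 333 and 355 in E12KO, 330.2, 331 and 405 in E47wt and 324, 134 and 426 in E47KO (ENSMUSG00000026355). Replicate 2 of E47KO stood at 0.391 of the median of the other libraries, and the other 11 libraries ran from 324 to 426 CPM. The ratio was 0.404 for Mcm3, 0.404 for Mcm4, 0.492 for Mcm2, 0.503 for Mcm5 and 0.692 for Mcm7. Log2 fold changes of the 6 genes ran from −0.07 ± 0.07 (Mcm6) to 0.03 ± 0.08 (Mcm2) in E12KO and from −0.27 ± 0.37 (Mcm6, 0.08 ± 0.14 without replicate 2) to −0.05 ± 0.20 (Mcm7, 0.14 ± 0.13 without replicate 2) in E47KO, and none passed.

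**Figure D2:**
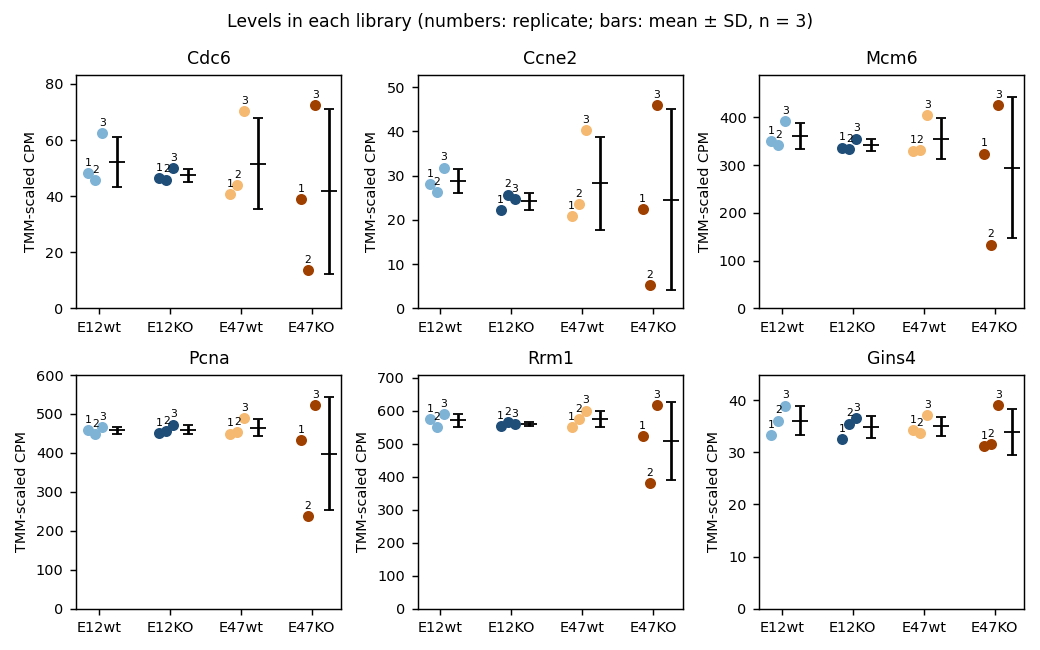
TMM-scaled CPM of 6 genes in each library, with the replicate number at each point and bars for mean ± SD of the 3 libraries of a group. For Cdc6, Ccne2, Mcm6, Pcna and Rrm1, E47KO replicate 2 is the lowest point, at 13.5, 5.24, 134, 239 and 381 CPM, while for Gins4 it lies next to E47KO replicate 1.

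Among the genes that turn the loaded ring into a running helicase, Mcm10, which stabilises the helicase and brings polymerase alpha, had 89.1, 89.9 and 98.02 CPM in the E12wt libraries, 90.2, 91.2 and 86.6 in E12KO, 75.8, 87.2 and 105 in E47wt and 82.0, 43.2 and 115 in E47KO (ENSMUSG00000026669). Apart from E47KO replicate 2, its libraries ran from 75.8 to 115 CPM. The kinase Cdc7, which phosphorylates the ring, had 64.1, 56.4 and 81.5 CPM in the E12wt libraries, 57.0, 64.5 and 58.2 in E12KO, 51.8, 54.9 and 86.4 in E47wt and 49.8, 28.1 and 88.9 in E47KO (ENSMUSG00000029283). Replicate 3 was the highest library of E12wt, of E47wt and of E47KO for this gene, and both comparisons overlapped. Gins3, a GINS subunit, had 17.98, 16.4 and 22.7 CPM in the E12wt libraries, 17.3, 19.1 and 17.4 in E12KO, 16.8, 15.5 and 21.6 in E47wt and 13.97, 10.2 and 21.8 in E47KO (ENSMUSG00000031669). Its E47KO libraries spanned more than those of E47wt. Mcm10, Cdc7 and Gins3 had log2 fold changes in E47KO of −0.16 ± 0.32 (0.14 ± 0.18 without replicate 2), −0.21 ± 0.40 (0.11 ± 0.29 without replicate 2) and −0.23 ± 0.29 (0.00 ± 0.22 without replicate 2). Gins4 had the lowest coefficient of variation over all 12 libraries, at 31.2 to 39.0 CPM in all libraries, and its ratio in E47KO replicate 2 was 0.890. Gins1 had 3 E12KO libraries below the 3 E12wt libraries, at −0.16 ± 0.08 (edgeR adjusted p = 0.580), while Cdc45 and Gins2 were at 0.05 ± 0.06 and 0.01 ± 0.09.

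Pcna, the clamp that holds polymerases on DNA, had 459, 448 and 466 CPM in the E12wt libraries, 451, 456 and 473 in E12KO, 449.8, 454 and 490.3 in E47wt and 433, 239 and 522 in E47KO (ENSMUSG00000027342). The other 11 libraries ran from 433 to 522 CPM, all above E47KO replicate 2. The log2 fold change was 0.01 ± 0.05 in E12KO and −0.22 ± 0.26 (0.04 ± 0.10 without replicate 2) in E47KO. Rfc3, a subunit of the loader that places the clamp, had 66.1, 60.5 and 70.1 CPM in the E12wt libraries, 60.5, 60.2 and 62.9 in E12KO, 63.6, 59.4 and 67.7 in E47wt and 58.6, 33.4 and 67.5 in E47KO (ENSMUSG00000033970). Its log2 fold change was −0.09 ± 0.07 in E12KO and −0.26 ± 0.24 (−0.01 ± 0.10 without replicate 2) in E47KO, where its smallest value again came from replicate 2. Rfc4 and Rfc5 had ratios of 0.566 and 0.684 in that library. Rfc2 differed from the other loader subunits in E47KO replicate 2, with 64.7 CPM there and 64.3 to 83.3 CPM over all libraries.

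Pola1, the catalytic subunit of the polymerase that starts each strand, had 107, 119 and 108 CPM in the E12wt libraries, 108, 134 and 121 in E12KO, 105, 125 and 127 in E47wt and 104, 56.4 and 141 in E47KO (ENSMUSG00000006678). Prim1, the primase that makes its RNA primer, had 85.7, 75.97 and 90.5 CPM in the E12wt libraries, 71.8, 74.6 and 71.5 in E12KO, 68.8, 74.4 and 86.6 in E47wt and 71.4, 43.2 and 84.4 in E47KO (ENSMUSG00000025395). The 3 E12KO libraries of Prim1 were all below the 3 E12wt libraries, and its log2 fold change of −0.20 ± 0.07 had the smallest p of the set in this comparison (edgeR unadjusted p = 0.0230, adjusted p = 0.523). In E47KO, Pola1 and Prim1 were at −0.24 ± 0.30 (0.04 ± 0.15 without replicate 2) and −0.21 ± 0.24 (0.02 ± 0.12 without replicate 2), and Pole, the leading strand polymerase, at −0.17 ± 0.34 (0.13 ± 0.22 without replicate 2). Pold1, the lagging strand polymerase, was the highest of the 44 in E47KO, at 0.16 ± 0.26 (0.38 ± 0.19 without replicate 2), with 42.8 to 64.5 CPM in E47wt and 37.7 to 72.2 CPM in E47KO.

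Fen1, the nuclease that trims Okazaki fragments, had 63.0, 57.6 and 72.2 CPM in the E12wt libraries, 59.7, 56.3 and 66.9 in E12KO, 58.8, 58.1 and 76.9 in E47wt and 63.4, 34.0 and 80.6 in E47KO (ENSMUSG00000024742). Lig1, the ligase that seals them, had 186, 185 and 193 CPM in the E12wt libraries, 185, 171 and 189 in E12KO, 169, 177 and 209 in E47wt and 175, 107 and 223 in E47KO (ENSMUSG00000056394). Neither gene separated knockout from wild type in either line. The value of Fen1 in E12KO was −0.07 ± 0.10 here and 0.52 ± 0.41 (SE) with both-strand counts, which held 1.02% as many reads of it. The error of the both-strand value is too wide to tell these values apart. Of the single-strand binding genes, Rpa1, the large subunit of replication protein A, had 213, 214 and 218 CPM in the E12wt libraries, 214, 222 and 234 in E12KO, 221, 223 and 234 in E47wt and 210.0, 161 and 262 in E47KO (ENSMUSG00000000751). The middle subunit Rpa2 had 67.5, 68.4 and 73.1 CPM in the E12wt libraries, 69.6, 64.5 and 76.2 in E12KO, 66.3, 64.5 and 82.4 in E47wt and 71.3, 41.1 and 85.1 in E47KO (ENSMUSG00000028884). Their ratios in E47KO replicate 2 were 0.726 and 0.590, and that of Rpa3 was 0.705.

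Rrm1, the large subunit of ribonucleotide reductase, which makes the deoxynucleotides, had 574, 549.8 and 588 CPM in the E12wt libraries, 554, 565 and 559 in E12KO, 550.1, 575 and 599.9 in E47wt and 523, 381 and 616 in E47KO (ENSMUSG00000030978). For Rrm2, the subunit that is made in S phase, the levels were 384, 343 and 405 CPM in the E12wt libraries, 349.7, 351 and 342 in E12KO, 329.7, 340.0 and 420.5 in E47wt and 335, 172 and 444 in E47KO (ENSMUSG00000020649). Tyms, which makes thymidylate, had 77.2, 76.1 and 86.6 CPM in the E12wt libraries, 75.2, 76.03 and 84.1 in E12KO, 74.9, 79.0 and 92.3 in E47wt and 74.1, 41.1 and 97.8 in E47KO (ENSMUSG00000025747). All 3 genes were lowest in E47KO replicate 2 and highest in E47KO replicate 3. In E47KO replicate 2 the ratio was 0.492 for Rrm2, 0.533 for Tyms, 0.675 for Rrm1 and 0.738 for the thymidine kinase Tk1. The log2 fold changes in E12KO were −0.02 ± 0.06 for Rrm1, −0.11 ± 0.07 for Rrm2, −0.02 ± 0.07 for Tyms and 0.07 ± 0.09 for Tk1.

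Ccne2, a cyclin that drives entry into S phase, varied most of all. It had 28.2, 26.4 and 31.9 CPM in the E12wt libraries, 22.1, 25.7 and 24.7 in E12KO, 20.9, 23.6 and 40.4 in E47wt and 22.4, 5.24 and 46.0 in E47KO (ENSMUSG00000028212). In E47KO its highest library was above, and its lowest far below, every other library in the study. The 3 E12KO libraries were below the 3 E12wt libraries, at −0.25 ± 0.10 on the log2 scale (edgeR unadjusted p = 0.0377, adjusted p = 0.534). In the E47 line the log2 fold change was −0.20 ± 0.66 (0.27 ± 0.36 without replicate 2), and its error with all libraries was the widest of the 44 genes. The other cyclin E gene, Ccne1, had 38.2, 41.1 and 41.4 CPM in the E12wt libraries, 40.0, 40.5 and 42.4 in E12KO, 37.6, 37.4 and 51.7 in E47wt and 38.0, 18.6 and 51.0 in E47KO (ENSMUSG00000002068). E2f1, a transcription factor of S phase genes, was at 0.09 ± 0.07 in E12KO and −0.10 ± 0.33 (0.21 ± 0.16 without replicate 2) in E47KO, with a ratio of 0.474 in E47KO replicate 2.

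The 5 genes that copy chromatin with the DNA were lowest in E47KO replicate 2 and, but for Chaf1b, highest in E47KO replicate 3. Dnmt1, the methyltransferase that restores methylation on the new strand, had 291, 329 and 306 CPM in the E12wt libraries, 321, 312 and 325 in E12KO, 293, 302 and 367 in E47wt and 281, 160.2 and 407 in E47KO (ENSMUSG00000004099). Chaf1b, a subunit of the histone chaperone CAF-1, had 75.96, 73.8 and 86.8 CPM in the E12wt libraries, 73.3, 69.1 and 80.4 in E12KO, 67.1, 70.0 and 92.0 in E47wt and 73.9, 32.8 and 91.5 in E47KO (ENSMUSG00000022945). Its ratio in E47KO replicate 2 was 0.443. The ratio there was 0.554 for Chaf1a, 0.546 for the histone mRNA binding protein Slbp, 0.542 for Uhrf1, which guides Dnmt1, and 0.513 for Dnmt1. Log2 fold changes in E47KO were −0.18 ± 0.30 (0.10 ± 0.17 without replicate 2) for Dnmt1, −0.21 ± 0.35 (0.12 ± 0.16 without replicate 2) for Chaf1b and −0.04 ± 0.35 (0.26 ± 0.24 without replicate 2) for Uhrf1.

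The first comparison asked whether loss of E12 changes these genes. None of the 44 was called at an adjusted p under 0.05 in E12KO (edgeR quasi-likelihood test, Benjamini-Hochberg adjustment over all genes), where 6 of 14755 genes, or 0.0407%, were called. DESeq2 called 76 of 14754 genes (0.515%), again with 0 of the 44, whose smallest adjusted p was 0.400 for Prim1. The median log2 fold change was −0.03 beside 0.00 for all genes, with 16 genes above and 28 below 0, where 48.6% of all genes were below 0. At an unadjusted p under 0.05 there were 2 of the 44, Prim1 and Ccne2, both lower, beside 8.96% of all genes (4.29% higher and 4.67% lower). The libraries did not overlap for 4 of the 44, with Orc1 higher and Gins1, Prim1 and Ccne2 lower in E12KO, beside 13.6% of all genes (6.47% higher and 7.17% lower). Neither count of the 44 made up a larger share than among all genes. The 95% intervals of all 44 lay between −0.47 (Ccne2) and 0.38 (Orc1) on the log2 scale, with a median SE of 0.08.

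The count of directions in E12KO moved with single libraries. Without E12wt replicate 3, in which 39 of the 44 genes were above the median of the other 11 libraries (median ratio 1.11), 28 genes were above and 16 below 0, with a median of 0.01. Leaving out replicates 1 or 2 of E12wt gave 9 and 16 above 0, and leaving out replicates 1, 2 or 3 of E12KO gave 21, 19 and 8 above 0, with medians of −0.07, −0.06, −0.01, −0.01 and −0.05. The number with an unadjusted p under 0.05 ranged from 0 to 5 over these fits. Tested markers of fibroblasts, neurons, the oligodendrocyte lineage and endothelium had lower values in E12KO, while 4 of the 6 astrocyte markers were above 0 and 2 below. Of 5 endothelium markers only 2 were tested (median −0.28, none called). The astrocyte median was 0.29, none was called, and 2, both higher, had an unadjusted p under 0.05 (edgeR). Of 7 fibroblast markers, the 4 that were tested were lower in E12KO, 3 of them called, and the list summed to 8.03 to 10.8 CPM in E12wt and 1.32 to 1.76 CPM in E12KO. All 7 neuron markers tested had a log2 fold change below 0 (median −0.38, none called, 3 with an unadjusted p under 0.05), with a summed level of 208 to 256 CPM in E12wt and 176 to 208 CPM in E12KO. All 6 markers of the oligodendrocyte lineage were below 0 too (median −0.64, none called, 2 with an unadjusted p under 0.05), with 400.5 to 660.2 CPM in E12wt and 366 to 419.9 CPM in E12KO. In E12wt replicate 3 all 6 of these were above the median of the other libraries (median ratio 1.77) and all 6 astrocyte markers below it (0.576). In E47KO, 6 of the 7 neuron markers tested were below 0 as well (edgeR, median −0.51, none called, 2 lower with an unadjusted p under 0.05). Of the 6 astrocyte markers, 5 were above and 1 below 0 there (edgeR, median 0.70, none called, 2 higher with an unadjusted p under 0.05). The oligodendrocyte lineage had 3 above and 3 below 0 (median 0.02). These E47KO values include E47KO replicate 2. The part of these markers in the values of the 44 genes was not tested.

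**Figure D3:**
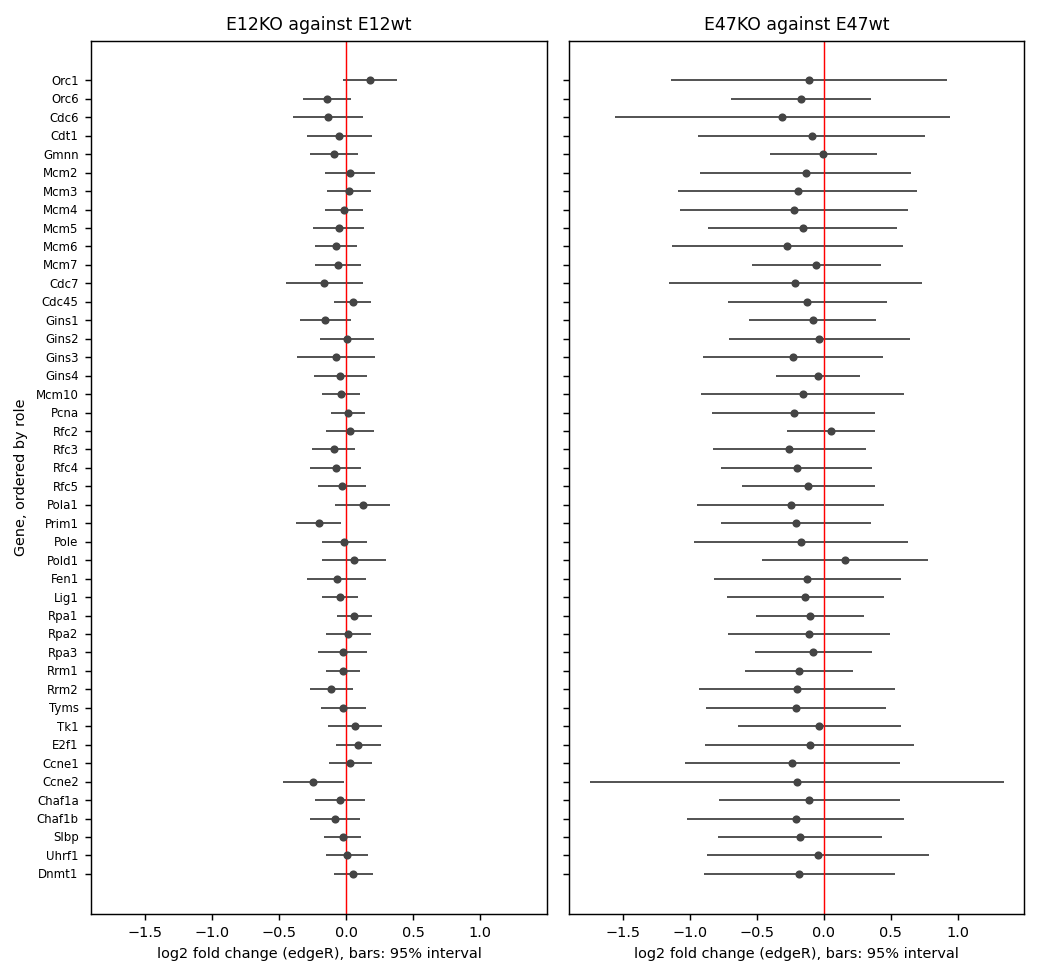
Log2 fold changes of the 44 genes with 95% intervals from edgeR, ordered by role, for E12KO against E12wt (left) and E47KO against E47wt (right) on the same axis, with a red line at 0. The intervals on the left all lie between −0.47 and 0.38, and those on the right reach from −1.75 to 1.34, both ends being Ccne2.

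The second comparison asked the same of E47. None of the 44 genes was called in E47KO by edgeR, where 2 of 14965 genes, or 0.0134%, were called, and the smallest adjusted p of the set was 0.971. DESeq2 called 10 of 14960 genes (0.0668%) and 0 of the 44. None of the 44 had an unadjusted p under 0.05, beside 2.19% of all genes (1.13% higher and 1.06% lower). None had libraries that did not overlap, beside 7.89% (4.02% higher and 3.88% lower). With E47KO replicate 2 lowest for 42 of the 44 genes and replicate 3 highest for 35, E47KO spans E47wt for most of them. The overlap count could thus hardly rise, and nothing about loss of E47 is read from it. The median log2 fold change was −0.16 beside −0.01 for all genes, with 42 of the 44 below 0 and Pold1 and Rfc2 above, where 51% of all genes were below 0. The median SE was 0.29, and the 95% interval was within ±1 for 35 of the 44 genes, so for the other 9 the interval reached past a 2-fold difference.

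The direction in E47KO turned or held with single libraries. Without E47KO replicate 2, 41 of the 44 genes were above and 3 below 0, with a median of 0.11 and a median SE of 0.15, and again none was called or had an unadjusted p under 0.05. Without E47KO replicate 3, all 44 were below 0, with a median of −0.40, and Cdc6 and Ccne2 were at −0.95 ± 0.45 and −1.01 ± 0.58 (SE). There Gins3, at −0.55 ± 0.22, had an unadjusted p of 0.0433 (edgeR; adjusted p = 0.505), and none of the 44 was called. Without E47wt replicate 3, 19 were above and 25 below 0, with a median of −0.02. The other fits kept the direction. Without E47wt replicate 1, 2 were above and 42 below 0 (median −0.21). Without E47wt replicate 2 these counts were 1 and 43 (−0.19), and without E47KO replicate 1 they were 3 and 41 (−0.18). In summed level, E47KO replicate 2 lay below, and E47KO replicate 3 above, all 3 E47wt libraries.

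**Figure D4:**
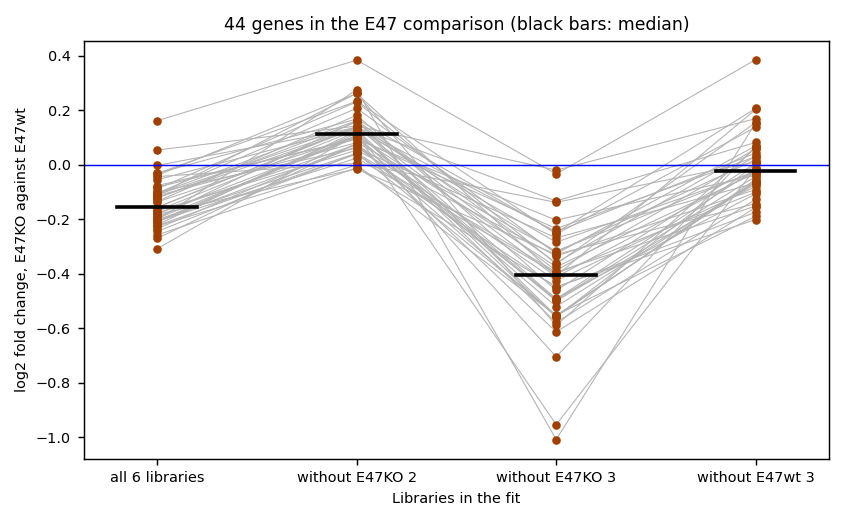
Log2 fold change of each of the 44 genes in E47KO against E47wt with all 6 libraries and without E47KO replicate 2, E47KO replicate 3 or E47wt replicate 3, lines joining the values of a gene and black bars giving the median. The medians are −0.16, 0.11, −0.40 and −0.02.

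Sex-linked transcripts differed between the E47 groups. Xist was at 891 to 1509 CPM in all 6 E12 libraries and in E47wt replicates 1 and 3, and at most 0.839 CPM in E47wt replicate 2 and the 3 E47KO libraries, which instead had 197 to 246 CPM of Y-linked transcripts. With sex, as read from these transcripts, as a term, which rests on E47wt replicate 2 for the wild-type side of the comparison, the median log2 fold change of the 44 genes was −0.07, with 14 above and 30 below 0. Pola1 lies on the X chromosome, and its level in E47wt was 125 CPM in replicate 2 and 105 and 127 CPM in replicates 1 and 3.

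E47wt was also compared with E12wt, which asks how far wild-type cells of the lines differ. None of the 44 genes was called in E47wt against E12wt, as for all 14892 genes tested with edgeR (0%), of which 568, or 3.81%, had an unadjusted p under 0.05 (2.05% higher and 1.77% lower, none of the 44), and DESeq2 called 7 (0.047%). The median log2 fold change was 0.00, with 23 above and 21 below 0, where 51.5% of all genes were below 0. Rpa1 alone had libraries that did not overlap, higher in E47wt, beside 9.52% of all genes (5.08% higher and 4.44% lower). Without E47wt replicate 3 the split was 2 above and 42 below 0, and without E47wt replicate 1 it was 38 above and 6 below; these are the extremes over the fits that leave out 1 library. The difference between the knockout effects, tested as an interaction in all 12 libraries, was also called for none of the 44 and for none of 15277 genes (0%), of which 463, or 3.03%, had an unadjusted p under 0.05 (1.2% higher and 1.83% lower, none of the 44), and DESeq2 called 1 (0.00655%). Its median over the 44 genes was −0.11, with 8 above and 36 below 0, where 49.3% of all genes were below 0. Without E47KO replicate 2 it was 0.15, with 43 above and 1 below 0. Without E47KO replicate 3 it was −0.36, with 0 above and 44 below, none called, and an unadjusted p under 0.05 for Pola1 at −0.68 ± 0.27, Rpa1 at −0.33 ± 0.14 and Dnmt1 at −0.58 ± 0.25 (SE). Without E47wt replicate 3 it was 0.01, with 26 above and 18 below, and with the sex term 0.01, with 23 above and 21 below.

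The other genes of DNA replication, a list of 52 that includes the remaining origin complex subunits, accessory polymerase subunits and E2F genes, gave 0 called genes in each line. In E12KO, 13 were above and 39 below 0 with a median of −0.05, and the largest log2 fold change was −0.26 ± 0.11 for Dscc1, a part of an alternative clamp loader. Without E12wt replicate 3 this list had 24 above and 28 below 0, with a median of 0.00. In E47KO, 6 were above and 46 below 0 with a median of −0.14, and the largest was 0.43 ± 0.31 for Pold4, the smallest subunit of polymerase delta. Without E47KO replicate 2 the split was 41 above and 11 below 0 and Pold4 was at 0.02 ± 0.18, without E47KO replicate 3 the split was 4 above and 48 below, and without E47wt replicate 3 it was 17 above and 35 below. In E47KO replicate 2 itself, 48 of the 52 were below the median of the other libraries, with a median ratio of 0.636. Pold4 went the other way, with 6.08, 6.24 and 6.15 CPM in the E12wt libraries, 6.63, 5.75 and 7.13 in E12KO, 6.10, 6.82 and 5.62 in E47wt and 6.99, 12.6 and 5.53 in E47KO (ENSMUSG00000024854).

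Other gene lists are given here for E47KO replicate 2, where 50.1% of all genes tested had a ratio below 1 and 49.9% above 1. Of 20 mitosis genes, 17 had a ratio below 1 in E47KO replicate 2, with a median of 0.820. Of 9 genes of cell cycle exit, 6 had a ratio above 1, with a median of 1.25. All 6 astrocyte markers had a ratio above 1, with a median of 2.43; their summed level was 387 CPM there, 225 to 254 CPM in the other E47KO libraries, 131 to 228 CPM in E47wt, 114 to 196 CPM in E12KO and 102 to 151 CPM in E12wt, and none was at 0 in any library. Aqp4, a water channel of astrocytes, was at 23.9 CPM there and at 1.66 to 4.87 CPM elsewhere, while Gfap, the filament protein that defines mature astrocytes, was under 1 CPM in every library. Of 6 markers of the oligodendrocyte lineage, 4 had a ratio above 1, with a median of 1.78 and a highest of 4.86. Of 7 neuron markers, 4 had a ratio below 1, with a median of 0.857, and 2 were under 0.5. For lists this small, the splits of the exit, oligodendrocyte and neuron lists lie near the shares of all genes. The 8 neural stem cell markers had a median ratio of 1.04. The part of these lists in the levels of the 44 genes was not tested.

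**Figure D5:**
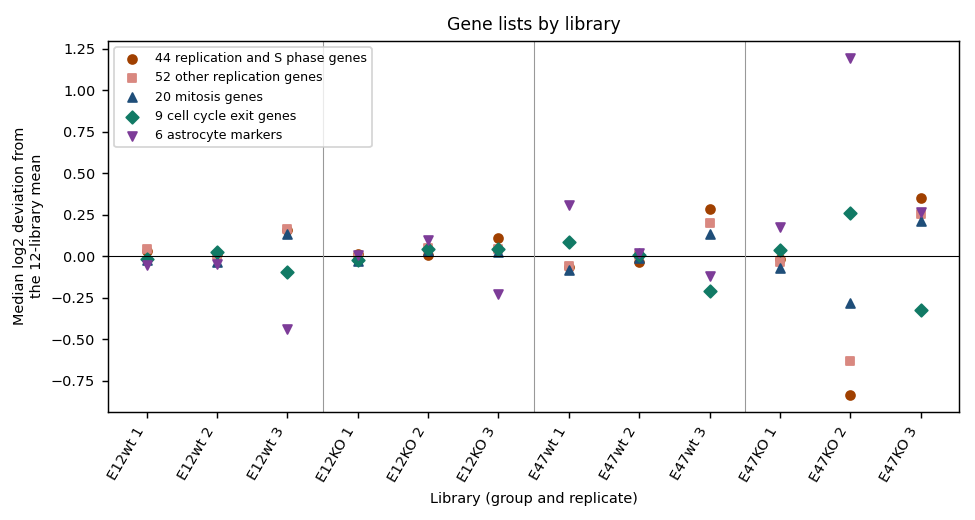
For each library, the median over a gene list of the log2 deviation from the 12-library mean, for the 44 genes, 52 other replication genes, 20 mitosis genes, 9 cell cycle exit genes and 6 astrocyte markers. In E47KO replicate 2 the replication lists lie lowest and the astrocyte markers highest, and in E47KO replicate 3 and E47wt replicate 3 the exit genes lie below 0 and the replication lists above it.

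In the authors' deposited tables, which use counts of both strands, 43 of the 44 genes, all but Fen1, were matched and none was called in either line. The authors' deposited table for E12 calls 62 of 12089 genes (0.513%), and 16 of the 43 genes are above and 27 below 0. The authors' deposited table for E47 calls 10 of 12561 genes (0.0796%), and 4 of the 43 are above and 39 below 0 with all 6 libraries.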

How the data were processed

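For each library the authors deposited a table of raw read counts by gene, made with STAR 2.5 on genome build mm9, per the submitters' processing notes, in versions for both strands, the sense strand and the opposite strand. Which annotation they used: not given in the sources used here. Opposite-strand counts were used, since the library kit is stranded per the labels' protocols. The authors' deposited tables for each line hold signal scaled per library, log2 fold changes, a score that is the fold change over its error, and p-values, per the file headers. Their signal equals the both-strand counts times 1 factor per library. They were used only where named. DESeq2 and DESeq are named in the submitters' processing notes, with no version.

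The test was the quasi-likelihood F test of edgeR 4.0.16 under R 4.3.3 (low-count filter by group, TMM, two-sided, Benjamini-Hochberg over all genes tested), each line in its own 6 libraries, and called at an adjusted p under 0.05. Fold changes use a prior count of 0.125, and the SE is the fold change over the root of F. DESeq2 1.42.0, other size factors, no filter, both-strand counts, a replicate block, a fit of all 12 libraries, a sex term and leaving out each library were alternatives. The fit was tested on simulated counts drawn independently for each gene. These hold no library in which many genes shift together, as in E47KO replicate 2, so the simulation does not cover that case. Gene names and exon lengths came from GENCODE on GRCm38, and promoters from RefSeq; mm9 coordinates were not used here.

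Same-numbered libraries of E47wt and E47KO deviated together from their group means (correlations 0.195, 0.260 and 0.524 over genes). E47wt replicate 1 with E47KO replicate 2 came near the lowest of these, at 0.171, and the other pairs of unlike number were below 0. Deviations from a group mean are not independent of each other, so these values cannot show that the numbers pair the samples. No label says that they do. The 44 genes and all lists were chosen with earlier results of these data known, and no test was made over a list. Values in every library are given for Pcna and, in each role, for the gene with the highest mean CPM and those with the largest absolute log2 fold change in each line. A search for PCNA-binding motifs in proteins was not run.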

Additional observations from a re-analysis of the deposited data

How the results depend on the processing

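None of the 44 genes was called under any alternative in any of the 4 comparisons. No named gene changed its side of the threshold, and none changed sign where both values exceeded their standard error. In E47KO this rule could score few changes, since the median log2 fold change of the 44 genes was −0.16 beside a median SE of 0.29. Signs there did turn, from 2 above and 42 below 0 with all libraries to 41 above and 3 below without E47KO replicate 2. Counts of called genes over all genes did move. In E12KO, 6 genes were called, against 76 with DESeq2, 20 with no filter and 2 in the fit of all 12 libraries, and 2 to 10 when a library was left out (10 without E12wt replicate 3, 2 without E12KO replicate 2 or 3). In E47KO, 2 were called, against 10 with DESeq2, 1 with the sex term, and 0 to 7 when a library was left out (1 without E47wt replicate 1 or E47KO replicate 1, 7 without E47wt replicate 2, 0 without E47wt replicate 3). E47wt against E12wt went from 0 to 7 with DESeq2 and 1 in the fit of all 12 libraries. The interaction went from 0 to 1 with DESeq2, and from 0 to 1 over the fits without a library, the 1 being without E47wt replicate 2. The cause of these shifts was not tested.

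With the replicate block, 4 genes were called in E12KO, where the same-numbered libraries did not deviate together (correlations 0.112, 0.0840 and −0.0541), and 2 in E47KO, 0 between the wild types and 0 for the interaction; the median of the 44 genes in E47KO was −0.24 with the block. The block changed no call of the 44 genes. Each of the 44 genes had at least 190 reads in every library, and the median SE of their log2 fold changes was 0.08 in E12KO and 0.29 in E47KO.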

Other observations

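The number of reads differed with the strand of the counts for a few of the 44 genes. Fen1 had 32698 opposite-strand reads over the 12 libraries but 333 in the both-strand counts, 1.02% as many, and the cause was not tested. Its log2 fold change in E12KO was −0.07 ± 0.10 (SE) with opposite-strand and 0.52 ± 0.41 with both-strand counts. The both-strand count was also under 90% of the opposite-strand count for Orc1 (74.0%), Gins2 (84.3%), Chaf1a (84.9%), Rfc4 (87.4%) and Ccne2 (89.0%), and at or above it for the other 38 genes. Pcna has a processed copy, Pcna-ps2, with 2205 reads beside 232400 for Pcna.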
